A study of Mus musculus with 6 samples.

Results

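The HSP70 and HSP110 chaperones were described in rat ovary through 10 genes, chosen by gene name: Hspa1a, Hspa1b, Hspa1l, Hspa2, Hspa4, Hspa4l, Hspa8, Hspa9, Hspa13 and Hsph1. Each name stood on 1 row of a deposited table of 22487 genes. RNA sequencing of whole ovary had been done on 3 libraries of adult female rats exposed to cowshed PM2.5 (fine airborne particles), and on 3 libraries of untreated rats, all labelled wild type (WT). The titles also give 30 days, with no word on what that period covers, and the labels give neither a dose nor a route. The organism field names the mouse, but the titles say rat, and each of the 22487 identifiers is a rat Ensembl gene. Nothing in the labels ties each library to its own animal, and p-values therefore reflect the spread among these samples, which may be technical.

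HSP70 proteins bind exposed hydrophobic stretches of unfolded proteins and let them go in a cycle driven by ATP. J-domain proteins bring clients and speed up ATP hydrolysis, while nucleotide exchange factors, the HSP110 proteins among them, release ADP and the client. Hspa1a and Hspa1b are the stress-inducible cytosolic forms, switched on by heat shock factor 1 (Hsf1), and Hspa8 is the constitutive cytosolic form, abundant in most tissues. In the ovary, as elsewhere, cytosolic HSP70 hands unliganded steroid receptors on to HSP90.

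In the PM2.5 ovaries, 3 of the 10 genes fell and none rose: Hspa1b to 2.87% of its control mean, Hspa8 to 43.2% and Hsph1 to 40.0%. In whole ovary, fewer cells that express a gene and less of its RNA per cell cannot be told apart. The calls are from edgeR's quasi-likelihood test at a Benjamini-Hochberg adjusted p below 0.05 over all genes tested. The share of all 15303 tested genes that passed was 0.738% in the lower direction and 0.928% in either direction. PM2.5 and control libraries did not overlap in 5 of the 10 genes, with PM2.5 lower in each, against 15.2% of all tested genes apart in that direction and 27.2% in either. The 10 genes were chosen with earlier results of these data known, so neither count is a test of the family against all genes. The log2 fold changes, PM2.5 over control, were negative in 6 genes and positive in 4, with a median of -0.79 over the 10 genes and 0.0041 over all tested genes. Hspa1l met the expression minimum of 0.5 FPKM only through the controls, so its place among the tested genes is not support for a difference. Levels in CPM are counts scaled to a common library total with TMM factors, and FPKM are the authors' values per kilobase.

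**Figure D1:**
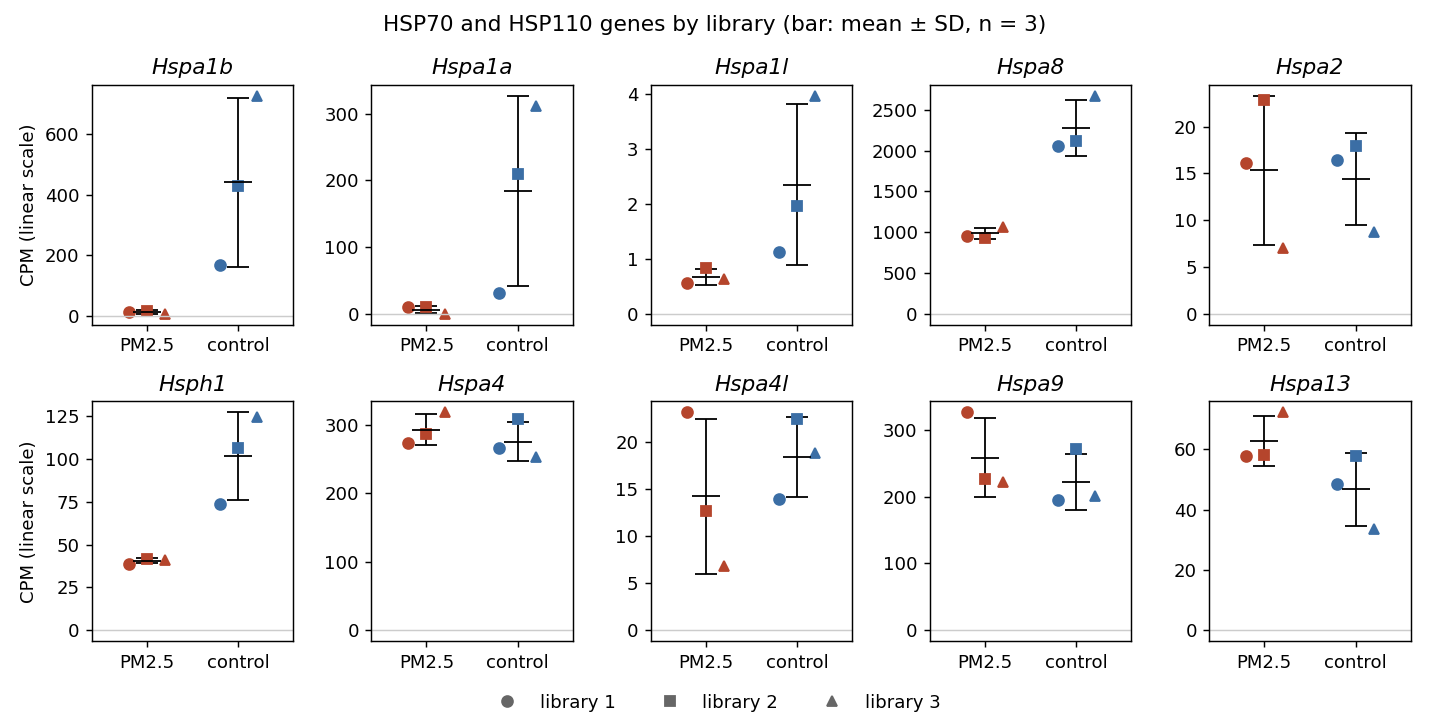
CPM (linear scales, one per panel) of the 10 genes in the 3 PM2.5 libraries (left, red) and the 3 control libraries (right, blue), with bars for mean ± SD. In Hspa1b, Hspa1a, Hspa1l, Hspa8 and Hsph1 every PM2.5 point lies below every control point, and in the other 5 genes the groups overlap.

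Hspa1b (ENSRNOG00000050647), an inducible cytosolic HSP70, had 14.1, 17.4 and 6.67 CPM in PM2.5 libraries 1 to 3 and 169, 430 and 728 CPM in control libraries 1 to 3. All PM2.5 libraries lay far below all controls, and the controls themselves differed by a factor of 4.30 between the lowest and the highest. The mean was 12.7 ± 5.49 CPM in PM2.5 ovaries and 442 ± 279 CPM in control ovaries (SD, n = 3 each), a control mean 34.8 times the PM2.5 mean. Here and below, n counts libraries. The log2 fold change was -5.12 ± 0.66 (SE, edgeR adjusted p = 0.0434).

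Its twin Hspa1a, which encodes nearly the same protein, had 9.84, 9.47 and 0 CPM in the PM2.5 libraries and 30.8, 210 and 312 CPM in the controls. PM2.5 libraries were again all below the controls, and within the controls the highest was 10.1 times the lowest. The log2 fold change of -4.83 ± 1.56 did not pass the threshold (edgeR adjusted p = 0.159). Hspa1l, a relative of this pair that in the mouse is expressed mainly in male germ cells, was near the bottom of the measured range at 0.553, 0.840 and 0.624 CPM in PM2.5 ovaries against 1.13, 1.96 and 3.96 CPM in control ovaries. The groups did not overlap, and the log2 fold change of -1.80 ± 0.56 did not pass (edgeR adjusted p = 0.150).

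Reads of Hspa1a and Hspa1b may be split between their rows, so the rows were also added up. Together they held 23.9, 26.9 and 6.67 CPM in the PM2.5 libraries and 200, 640 and 1040 CPM in the controls. The sum fell as well, with a log2 fold change of -5.03 ± 0.80 and an adjusted p of 0.0496 in the same edgeR test. That p is close to the threshold: it was 0.0504 with median-of-ratios size factors, and 0.0752 to 0.237 when PM2.5 library 1, 2 or 3 or control library 1, 2 or 3 was left out.

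The Hspa1a row took 41.1% of the pair's counts in PM2.5 library 1 (95% Clopper-Pearson interval 38.4 to 43.9%) and 35.3% in PM2.5 library 2, against 15.4% in control library 1 (14.7 to 16.1%), 32.8% in control library 2 and 30.0% in control library 3. In PM2.5 library 3 it took 0 of 331 counts, which allows a share of up to 0.906% by the limit of 3 counts, or 1.11% by the Clopper-Pearson interval. These intervals and limits cover counting error only. The share thus differed between libraries of the same group by more than counting error, and the single rows are less certain than their sum. In the table's coordinates, with a genome build not given in the sources used here, the pair lies on chromosome 20. Hspa1a is listed from 3856006 to 3873227 on the minus strand and Hspa1b from 3856006 to 3873240 on the plus strand, so the listed spans start at the same base and overlap almost wholly.

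With the strand setting of the counting not given in the sources used here, the 2 overlapping rows cannot be told apart by position. An unnamed gene, ENSRNOG00000067018, is listed inside that span on the minus strand from 3864200 to 3870816. It had 0.668, 1.48 and 1.31 CPM in PM2.5 libraries 1 to 3 and 3.33, 9.37 and 11.3 CPM in control libraries 1 to 3. Its groups did not overlap and its controls stood in the order of the pair, while its lowest PM2.5 library was 1 and that of the pair was 3, at a log2 fold change of -2.79 ± 0.58 (edgeR adjusted p = 0.0782). Hspa1l lies beside the pair, from 3848843 to 3855571. The nearest named protein-coding genes outside the cluster, a rule set after the values were seen, were Lsm2 and Neu1, with log2 fold changes of 0.01 ± 0.23 and 0.03 ± 0.19 (edgeR adjusted p = 0.980 and 0.953).

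Sequence of the same genes in the mouse shows how close the pair is and what its promoters hold. These are mouse windows from RefSeq (GRCm38.p6), matched by symbol, from 250 bases before to 50 bases after the start of transcription, and the rat promoters were not analysed here. There was no window for Hspa8, Hspa9 and Hspa13, so Hspa8, which fell in the rat data, could not be searched. A window existed for the other 7 of the 10 genes. Each was searched on both strands for a pair of heat shock element cores, GAANNTTC and TTCNNGAA, each of which is its own reverse complement, so the strands give the same matches. Of 32851 mouse windows, 7.86% held the first, 8.52% the second and 15.1% either. Capitals mark the matches. Hspa1a (chr17:34972107-34972406, minus strand) and Hspa1b (chr17:34959189-34959488, minus strand) are shown because their rat copies had the largest differences here, and Hsph1 (chr5:149636287-149636586, minus strand, the second of its windows) because it was the HSP110 gene that fell.
Hspa1a: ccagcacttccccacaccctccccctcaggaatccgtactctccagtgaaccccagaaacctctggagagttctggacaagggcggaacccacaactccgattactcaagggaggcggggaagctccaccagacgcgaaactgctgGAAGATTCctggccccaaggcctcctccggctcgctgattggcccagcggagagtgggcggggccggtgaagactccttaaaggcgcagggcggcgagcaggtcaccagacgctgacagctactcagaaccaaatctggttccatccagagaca
Hspa1b: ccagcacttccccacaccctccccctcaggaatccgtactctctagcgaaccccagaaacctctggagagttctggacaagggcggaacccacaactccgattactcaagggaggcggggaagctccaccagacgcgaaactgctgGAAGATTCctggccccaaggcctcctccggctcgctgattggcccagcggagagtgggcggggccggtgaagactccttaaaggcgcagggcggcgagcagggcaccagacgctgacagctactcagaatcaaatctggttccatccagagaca
Hsph1: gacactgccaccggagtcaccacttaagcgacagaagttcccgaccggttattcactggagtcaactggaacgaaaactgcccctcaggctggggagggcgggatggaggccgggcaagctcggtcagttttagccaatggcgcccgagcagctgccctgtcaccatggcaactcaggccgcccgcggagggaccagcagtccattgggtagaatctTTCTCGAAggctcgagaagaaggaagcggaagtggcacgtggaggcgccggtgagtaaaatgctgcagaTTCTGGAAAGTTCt
The Hspa1a and Hspa1b windows differed at 4 of 300 bases, an identity of 98.7%, and each held 1 match of the first core, at the same place. The Hsph1 window held 1 match of the second core on its own, and a second match of that core that overlaps one of the first. No match was found in the windows of Hspa1l, Hspa2, Hspa4 and Hspa4l. A match is a description of letters in a mouse window, not a site shown to be bound. In mouse transcripts, 40.5% of the 2654 stretches of 150 bases in Hspa1b, the read length here, also occur in Hspa1a, 1.47% occur in Hspa1l and 0 in Hspa8.

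Hspa8, the constitutive cytosolic HSP70 (chromosome 8, 41183264 to 41187259, plus strand), had 958, 933 and 1064 CPM in the PM2.5 libraries and 2053, 2118 and 2673 CPM in control libraries. Both groups were tight and far apart, with coefficients of variation of 7.06% in PM2.5 ovaries and 14.9% in control ovaries. It fell to a mean of 985 ± 69.6 CPM in PM2.5 ovaries, against 2282 ± 341 CPM in control ovaries (SD, n = 3 each), a log2 fold change of -1.21 ± 0.19 (edgeR adjusted p = 0.0463).

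The table also lists 5 rows that it describes as pseudogenes or copies of Hspa8, Hsc70-ps1, Hsc70-ps2, Hspa8-ps22, Hspa8-ps23 and LOC680121, which were singled out after their values were seen. Their summed level was 154, 145 and 170 CPM in the PM2.5 libraries and 288, 324 and 373 CPM in control libraries. That is 15.5 to 16.1% of the Hspa8 level in PM2.5 libraries and 14.0 to 15.3% in control libraries, so their ratio to Hspa8 was nearly the same in every library. Their log2 fold changes ran between -1.18 and -1.0, and in each of the 5 the PM2.5 libraries were all below the controls. The handling of reads that match both Hspa8 and a copy was not given in the sources used here, and these rows are not separate evidence.

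Hspa2, best known in the mouse for its part in male meiosis (chromosome 6, 95128350 to 95131287, plus strand), had 16.1, 22.9 and 6.99 CPM in the PM2.5 libraries and 16.4, 18.0 and 8.74 CPM in control libraries. The groups overlapped, with a log2 fold change of 0.09 ± 0.47 (edgeR adjusted p = 0.934), and library 3 was the lowest of each group.

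Among the HSP110 genes, whose proteins act as nucleotide exchange factors for HSP70, only Hsph1 passed the test. Hsph1, the heat-inducible one (chromosome 12, 5390922 to 5410224, plus strand), had 38.9, 41.6 and 41.2 CPM in the PM2.5 libraries and 73.8, 106 and 124 CPM in control libraries. The PM2.5 libraries were nearly level, at a coefficient of variation of 3.67%, and lay below every control. Hsph1 fell to a mean of 40.6 ± 1.49 CPM in PM2.5 ovaries, against 101 ± 25.6 CPM in control ovaries (SD, n = 3 each), a log2 fold change of -1.32 ± 0.20 (edgeR adjusted p = 0.0463).

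Hspa4, a constitutive HSP110 (chromosome 10, 37408025 to 37449001, minus strand), had 274, 286 and 318 CPM in the PM2.5 libraries and 267, 308 and 253 CPM in control libraries, with overlapping groups and a log2 fold change of 0.09 ± 0.15 (edgeR adjusted p = 0.771). Hspa4l, its close relative (chromosome 2, 123740384 to 123793084, plus strand), had 23.2, 12.7 and 6.83 CPM in the PM2.5 libraries and 14.0, 22.5 and 18.8 CPM in control libraries. Here PM2.5 library 1 was the highest of all and PM2.5 library 3 the lowest, so the groups overlapped (log2 fold change -0.37 ± 0.44, edgeR adjusted p = 0.665).

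Outside the cytosol, Hspa9 (chromosome 18, 26535798 to 26554292, minus strand) encodes mortalin, which drives protein import into the mitochondrial matrix, and had 326, 226 and 222 CPM in PM2.5 libraries against 195, 271 and 201 CPM in control libraries. Hspa13, a short HSP70 relative found with the microsomes (chromosome 11, 14373275 to 14389893, minus strand), had 57.9, 58.0 and 72.2 CPM in PM2.5 libraries against 48.4, 57.9 and 33.7 CPM in control libraries. Both overlapped between groups, and in Hspa13 PM2.5 library 1 and control library 2 were level. Their log2 fold changes were 0.21 ± 0.22 for Hspa9 and 0.43 ± 0.22 for Hspa13 (edgeR adjusted p = 0.610 and 0.317), and neither passed.

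**Figure D2:**
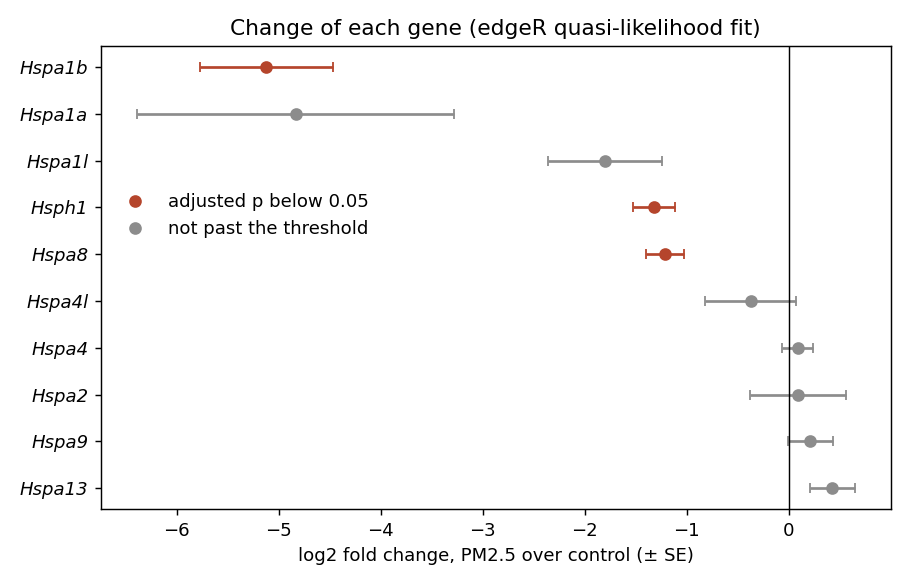
Log2 fold change, PM2.5 over control, of each gene (points) with its SE (bars), red where the edgeR adjusted p was below 0.05. Hspa1b at -5.12, Hsph1 at -1.32 and Hspa8 at -1.21 are red, and Hspa1a at -4.83 has the widest bar, with an SE of 1.56.

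The calls sat near the threshold and rested on all 6 libraries. With PM2.5 library 1, 2 or 3 or control library 1, 2 or 3 left out, 0 of the 10 genes passed, and the same held without the expression minimum. With edgeR's own filter on low counts Hspa1b alone passed, and with limma on log2(FPKM + 1) Hsph1 did not (adjusted p = 0.0505). With a library left out, the log2 fold changes lay between -5.51 and -4.55 for Hspa1b, between -1.28 and -1.08 for Hspa8 and between -1.51 and -1.14 for Hsph1. The adjusted p of Hspa1b lay between 0.0706 without control library 2 and 0.230 without PM2.5 library 2, and that of Hspa8 and Hsph1 between 0.0736 and 0.249. DESeq2 made the same count of 3 calls, with an adjusted p of 9.7e-19 for Hspa1b, 4.5e-09 for Hspa8 and 6.9e-06 for Hsph1, and called 1767 genes of 15303 in all. Without adjustment, 5 of the 10 genes and 3193 of the tested genes had a p below 0.05 in edgeR.

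Levels of different genes were compared in FPKM, which are per length. In PM2.5 ovaries Hspa8 led at a level of 354.6 ± 25.4 FPKM, followed by Hspa9 at 71.9 ± 16.5 FPKM, Hspa4 at 50.7 ± 3.98 FPKM, Hspa13 at 13.9 ± 1.83 FPKM and Hsph1 at 7.20 ± 0.262 FPKM (SD, n = 3). In control ovaries Hspa8 also led, at 815.6 ± 95.2 FPKM, and Hspa1b stood next at 95.1 ± 57.5 FPKM, ahead of Hspa9 at 62.0 ± 14.0 FPKM, Hspa1a at 60.7 ± 45.8 FPKM and Hspa4 at 47.7 ± 6.83 FPKM (SD, n = 3). In PM2.5 ovaries Hspa1b was 8th of 10 by level, at 2.76 ± 1.19 FPKM. Here and below, ranks, shares and ratios take the Hspa1a and Hspa1b rows singly, although reads may be split between them.

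In PM2.5 ovaries Hspa8, Hspa9, Hspa4 and Hspa13 each lay above the next gene without overlap, while Hsph1, Hspa2, Hspa4l, Hspa1b and Hspa1a each overlapped with the next gene down. In the controls Hspa8 lay above the rest without overlap, and Hspa1b, Hspa9, Hspa1a and Hspa4 formed a run in which each overlapped with the next. Hsph1 at 17.9 ± 4.27 FPKM overlapped with Hspa13 at 10.4 ± 3.07 FPKM, and Hspa2 at 4.81 ± 1.79 FPKM with Hspa4l at 3.98 ± 1.01 FPKM. Hspa1l was last in each group, at 0.229 ± 0.0511 FPKM in PM2.5 ovaries and 0.785 ± 0.460 FPKM in control ovaries.

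The summed level of the 10 genes was 519.8, 485.8 and 529.2 FPKM in PM2.5 libraries and 916.0, 1136 and 1304 FPKM in control libraries. The PM2.5 sums were alike and all below the controls. Hspa8 made up 69.3 ± 3.06% of the sum in PM2.5 ovaries and 73.5 ± 6.01% in control ovaries, and Hspa1b made up 0.547 ± 0.255% in PM2.5 ovaries and 8.05 ± 3.83% in control ovaries (SD, n = 3 each). Mitochondrial Hspa9 made up 14.0 ± 3.05% in PM2.5 ovaries and 5.64 ± 1.40% in control ovaries.

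Without Hspa8, Hspa1a and Hspa1b, the other 7 genes summed to 152 ± 14.4 FPKM in PM2.5 ovaries and 148 ± 26.4 FPKM in control ovaries, so the gap in the summed level lay in those 3 genes. The level of Hspa8 was 113, 88.8 and 264 times that of Hspa1b in PM2.5 libraries, and 20.1, 8.14 and 6.08 times in control libraries. These ratios leave out Hspa1a, at 3.28, 3.15 and 0 FPKM in PM2.5 libraries and 10.2, 72.3 and 99.5 FPKM in controls. They would be smaller against the pair wherever Hspa1a had counts.

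**Figure D3:**
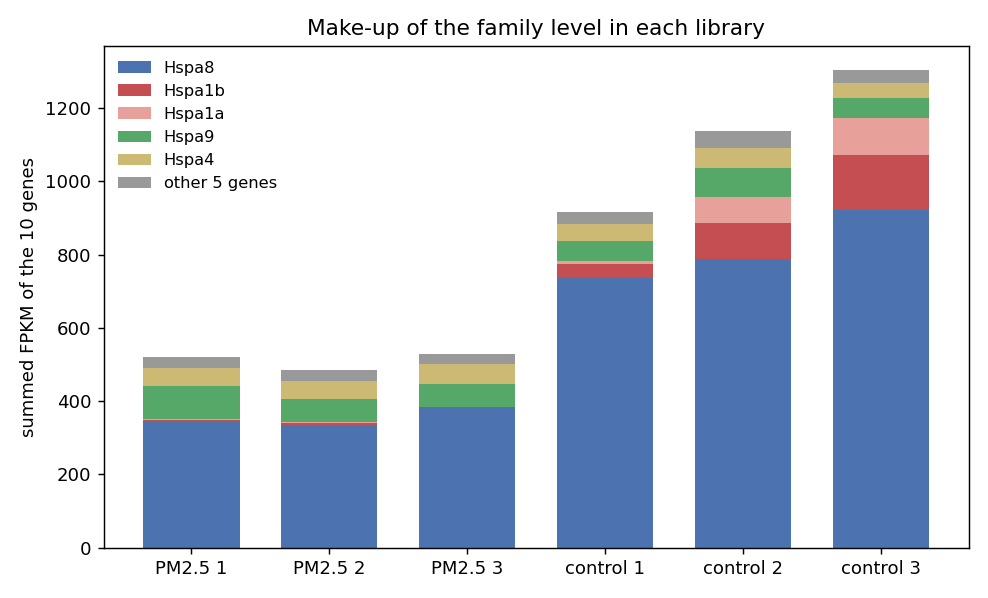
Stacked bars of FPKM, summed over the 10 genes, for each of the 3 PM2.5 and 3 control libraries, with Hspa8 at the bottom. The PM2.5 bars reach 485.8 to 529.2 and the control bars 916.0 to 1304, and the red Hspa1b and Hspa1a segments are visible in the controls and almost absent in PM2.5.

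The controls did not form one level for the genes that differed. In all 5 genes whose groups were apart, control library 3 was the highest and control library 1 the lowest, an order that 14.7% of tested genes had, and 21.6% of the 2323 tested genes with PM2.5 lower and groups apart. None of the other 5 genes had it. The 5 genes in that order are not separate observations. Reads may be split between Hspa1a and Hspa1b, and Hspa1l met the expression minimum only through the controls. No result about the family is read from this count. The highest control was 10.1 times the lowest in Hspa1a, 4.30 times in Hspa1b and 3.50 times in Hspa1l, against 1.30 times in Hspa8, 1.68 times in Hsph1 and a median of 1.5 times over all tested genes. Among PM2.5 libraries the ratio was 2.61 in Hspa1b, 1.14 in Hspa8 and 1.07 in Hsph1, with a median of 1.43 over all tested genes.

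Other markers were read in the same libraries. All 6 granulosa, 6 theca and luteal and 7 oocyte markers had counts in every library, which checks the ovary label. Granulosa markers summed to between 2277 and 7559 CPM in the PM2.5 libraries and between 1278 and 5302 CPM in controls, and theca and luteal markers to between 6931 and 20470 CPM in the PM2.5 libraries and between 10018 and 19388 CPM in controls, so these groups overlapped. Control library 3, the highest for the inducible genes, was the lowest of all for granulosa markers at 1278 CPM and for oocyte markers at 37.0 CPM. PM2.5 library 1 was the lowest of its group for both, at 2277 and 71.6 CPM, and had Hspa1b at 14.1 CPM.

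T and NK cell markers summed to 11.1, 13.3 and 8.98 CPM in the PM2.5 libraries and 22.8, 31.2 and 51.7 CPM in controls. Of the 7, only Gzmb passed the test, in the lower direction. Gzmb by itself had 0.858, 2.42 and 0.967 CPM in the PM2.5 libraries and 12.0, 20.4 and 43.0 CPM in controls. Nearly all of the gap in the sum, and its control order, which is that of Hspa1b, thus came from Gzmb and not from the markers as a group. Erythroid markers ran the other way, at 2737 to 4269 CPM in the PM2.5 libraries and 785 to 1043 CPM in controls, with 3 of 7 higher past the threshold. Immediate early genes, which cells switch on within minutes of a signal, summed to 1285, 803 and 867 CPM in the PM2.5 libraries and 1263, 5192 and 1866 CPM in controls, for the 19 of 21 in the table, and 2 of them passed in the lower direction. Their highest library was control 2, not control 3. The macrophage sums were 83.9 to 138 CPM in the PM2.5 libraries and 94.7 to 117 CPM in controls, and the endothelial sums 282 to 433 CPM in the PM2.5 libraries and 259 to 403 CPM in controls.

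Smooth muscle markers summed to 709 to 3510 CPM in the PM2.5 libraries and 455 to 892 CPM in controls, and adipocyte markers to 21.9 to 69.6 CPM in the PM2.5 libraries and 12.9 to 32.4 CPM in controls. For oviduct epithelium, 3 of 5 markers were in the table, at 33.7 to 107 CPM in the PM2.5 libraries and 7.98 to 33.8 CPM in controls. None of the listed markers was at 0 in all 6 libraries. The part of these markers in the differences of the HSP70 and HSP110 genes was not tested.

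Of the 50 genes listed as partners of the HSP70 cycle, 49 were in the table and all 49 were tested. The list comprised other HSP70 relatives, exchange factors, J-domain proteins, HSP90 links, heat shock factors and other heat-induced chaperones. Of the 49, 1 fell, Dnaja1, and none rose, against 0.738% of all tested genes lower and 0.928% in either direction. The median log2 fold change was -0.10, with 31 of 49 negative, and the groups were apart in 11 with PM2.5 lower and in 7 with PM2.5 higher. Over all tested genes, 15.2% were apart with PM2.5 lower and 27.2% in either direction. The counts of the lists lay somewhat above those shares. The lists were chosen with earlier results of these data known, so no result about the partners as a set is read from these counts.

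Dnaja1, a cytosolic J-domain protein that brings clients to HSP70, had 116, 117 and 110 CPM in the PM2.5 libraries and 234, 268 and 253 CPM in control libraries. The spread within each group was small beside the gap. The log2 fold change was -1.13 ± 0.13 (edgeR adjusted p = 0.0434), close in size to those of Hspa8 and Hsph1. Dnajb1, the J-domain protein that in mammals is induced together with Hspa1a and Hspa1b by heat, averaged 75.2 ± 4.38 CPM in PM2.5 ovaries and 108 ± 24.7 CPM in control ovaries. Its groups did not overlap, and its log2 fold change of -0.52 ± 0.19 did not pass (edgeR adjusted p = 0.191). Dnajc7, a J-domain protein that also binds HSP90, and Dnajb6, known for holding back aggregates, had positive values of 0.53 ± 0.19 and 0.35 ± 0.14 that did not pass. The groups overlapped in Dnajc7 and were apart in Dnajb6, with PM2.5 higher.

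None of the 10 further exchange factors passed. Bag1 averaged 114 ± 21.0 CPM in PM2.5 ovaries and 229 ± 35.9 CPM in control ovaries, without overlap, at a log2 fold change of -1.01 ± 0.20 (edgeR adjusted p = 0.0701). Bag3, an exchange factor of the heat shock response that steers clients to autophagy, overlapped at -0.33 ± 0.20. Sil1, which serves the endoplasmic reticulum HSP70, was at 0.33 ± 0.14, with groups apart and PM2.5 higher.

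Hspa5 and Hyou1, family members of the endoplasmic reticulum, had positive log2 fold changes, unlike Hspa8. So did Hspa2, Hspa4 and the mitochondrial Hspa9, so a positive sign was not particular to the endoplasmic reticulum. Hspa5 (BiP), the main HSP70 of that compartment, averaged 1111 ± 137 CPM in PM2.5 ovaries and 956 ± 188 CPM in control ovaries, with a log2 fold change of 0.22 ± 0.21. Hyou1, its HSP110-like partner, averaged 320 ± 22.1 CPM in PM2.5 ovaries and 230 ± 47.1 CPM in control ovaries, with a log2 fold change of 0.48 ± 0.19. The groups overlapped in Hspa5 and were apart in Hyou1, with PM2.5 higher. Neither passed (edgeR adjusted p = 0.582 and 0.220). The distant relatives Hspa12b, Hspa12a and Hspa14 had values of -1.49 ± 0.28, -1.09 ± 0.38 and -0.83 ± 0.24, each with groups apart and none past the threshold (edgeR adjusted p = 0.0656, 0.179 and 0.140).

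Along the handover to HSP90, Ahsa1, which speeds up the HSP90 ATPase, had a log2 fold change of -0.45 ± 0.12 and Stip1, which bridges HSP70 and HSP90, of -0.34 ± 0.13, both without overlap and neither past the threshold (edgeR adjusted p = 0.118 and 0.217). Stub1, the ubiquitin ligase that takes over HSP70 clients, was at 0.17 ± 0.12, with groups apart and PM2.5 higher. Hsf1, the factor that drives Hspa1a and Hspa1b under stress, averaged 61.4 ± 4.58 CPM in PM2.5 ovaries and 74.3 ± 3.71 CPM in control ovaries. Its groups were apart, with PM2.5 lower, and its log2 fold change of -0.28 ± 0.12 did not pass (edgeR adjusted p = 0.265). RNA levels do not measure Hsf1 activity. Hsf2, a related factor, was at 0.23 ± 0.20, and Hsbp1, which binds Hsf1, at -0.10 ± 0.15.

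Of the other heat-induced chaperones, Chordc1, an HSP90 co-chaperone, had a log2 fold change of -0.83 ± 0.14 (edgeR adjusted p = 0.0581). Hsp90aa1, the inducible HSP90, averaged 337 ± 22.2 CPM in PM2.5 ovaries and 566 ± 96.9 CPM in control ovaries, at -0.75 ± 0.18 (edgeR adjusted p = 0.102). Both had groups apart, and neither passed. The small heat shock protein Cryab was the other way, at 14.0 ± 4.40 CPM in PM2.5 ovaries and 6.71 ± 2.5 CPM in control ovaries, a log2 fold change of 1.06 ± 0.40 that did not pass (edgeR adjusted p = 0.202). Its groups were apart too, with PM2.5 higher.

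**Figure D4:**
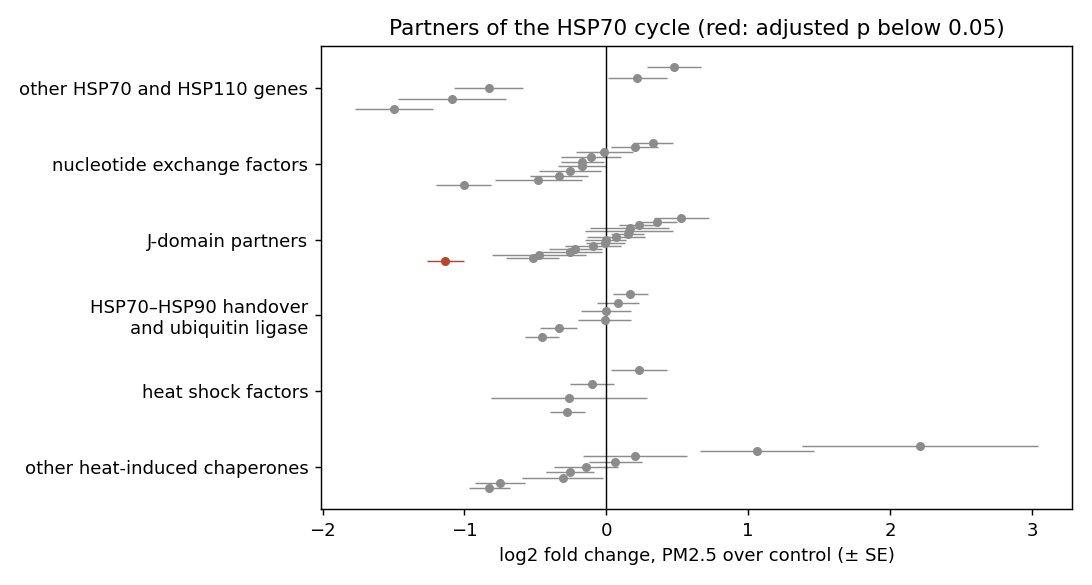
Log2 fold changes, PM2.5 over control, of the 49 partner genes (points) with SE (bars), grouped by role. The single red point is Dnaja1 at -1.13, the one gene with an adjusted p below 0.05, and the point farthest right, Hspb8, a small heat shock protein with overlapping groups, is at 2.21 ± 0.83.

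In the table's own Reactome annotation, 5 of the 10 genes (Hspa1a, Hspa1b, Hspa1l, Hspa2 and Hspa8) stood among 9 rows for ATP hydrolysis by HSP70, and 9 of the 10, all but Hspa4l, among 19 rows for the exchange of ATP for ADP by HSP110 proteins. Hspa1a, Hspa1b, Hspa1l and Hspa8 stood among 11 rows for gene expression driven by HSF1.

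Genes with the most similar pattern to Hspa1b and Hspa8 were found by the root-mean-square difference of centred log2 CPM over the 6 libraries, among 13000 named genes averaging 1 FPKM or more. For Hspa1b these included Gpr151 at 0.43, Sema3d at 0.48, Gzmb at 0.63 and LOC120097726 at 0.67 log2 units. None of these 4 belongs to the chaperone lists. Gpr151 and LOC120097726 were near the floor in PM2.5 ovaries, at means of 0.232 and 0.0948 CPM, against 8.31 and 1.75 CPM in control ovaries. They did not pass the test (edgeR adjusted p = 0.0572 and 0.106), while Sema3d and Gzmb did (0.0434 and 0.0486). These genes were picked for their likeness to Hspa1b over the same libraries. Lower values in PM2.5 followed from that choice, and the tests are not separate support. For Hspa8 the closest were Mob3c at 0.065, Zbtb9 at 0.075, AABR07048992.1 at 0.080, LOC680121 at 0.085 and Tnfrsf26 at 0.087 log2 units. The table describes LOC680121 as similar to heat shock protein 8 and as a pseudogene, so it may share reads with Hspa8.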

How the data were processed

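The labels' protocols give Trizol extraction, RNA integrity above 7, poly(A) selection, dUTP strand marking and paired reads of 150 bases on an Illumina NovaSeq. The submitters' processing notes name, with no roles, edgeR, DESeq2, StringTie 2.1.6, HISAT2 2.2.1 and cutadapt 1.9. The build, annotation release and strand setting were not given in the sources used here. The deposited table holds a read count per gene and library, as whole numbers, and FPKM values normalized by the authors per kilobase and library, per the file headers. Total counts were 49554241 to 60749578 in PM2.5 libraries and 47662338 to 51530427 in controls, with 19258 to 19841 genes counted.

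From the counts, edgeR 4.0.16 in R 4.3.3 (TMM, glmQLFit, glmQLFTest, group only) tested the 15303 genes averaging 0.5 FPKM or more, two-sided, with Benjamini-Hochberg adjustment at 0.05. An SE is the log2 fold change divided by the square root of F. Of these genes, 29 were higher and 113 lower in PM2.5. Levels between genes used the deposited FPKM, and likeness used log2 CPM with a prior count of 2. Libraries of a group differed by a chi-square of 112 to 278 per degree of freedom, so none repeats another. Alternatives were other scalings and filters, DESeq2 1.42.0, limma 3.58.1 on log2(FPKM + 1) and log2(FPKM + 0.1), the replicate number as a block, and fits with 1 library left out.

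Genes named are the 10 chaperones, the partner genes past the threshold with up to 3 more of smallest p per list, Hsf1, Hspa5, Hyou1, Bag3, Dnajb1, Stip1 and Hsp90aa1, and the 5 genes most like Hspa1b and Hspa8, of which 1 is not reported here. Members and lists were chosen with earlier results of these data known. Hspb8, the Hspa8 copies, the unnamed gene and the locus neighbours were named after their values were seen. St13, Junb, Dusp1, Foxj1 and Ovgp1 were not analysed here.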

Additional observations from a re-analysis of the deposited data

How the results depend on the processing

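Of the 10 chaperone genes, 3 passed the threshold with median-of-ratios factors, library size alone, a mean of at least 1 FPKM, DESeq2 and limma with a pseudocount of 0.1, and 2 with limma and a pseudocount of 1. The count was 1 with filterByExpr, 0 without an expression minimum, and 0 in every fit that left out a library. Over all genes it was 142 as reported, 8 without an expression minimum, 87 with filterByExpr, 1767 with DESeq2, and between 0 and 7 when 1 library was left out. The cause was not tested. The summed Hspa1a and Hspa1b rows kept their sign, and no longer passed at -5.02 (median-of-ratios), -5.03 (no minimum, adjusted p = 0.0576), -5.03 (filterByExpr, adjusted p = 0.0542), and -5.46 to -4.45 with a library left out. Of 155 values for single genes, 128 stayed on their side of the threshold, 27 lost it and 0 called ones changed sign. All 27 losses were among the 3 called genes: Hspa1b in 8 of 15 settings, Hspa8 in 9 of 16 and Hsph1 in 10 of 16. The other 7 genes had no call to lose, so the 128 do not show that the calls were stable.

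With the replicate number as a block, 1 gene of all tested and 0 of the 10 passed, and the summed pair was at -4.90 (adjusted p = 0.138). The labels do not say that numbers pair libraries. Deviations of same-numbered libraries from their group means correlated at -0.177, 0.162 and 0.0932 for numbers 1 to 3. With so few libraries per group, these values cannot settle whether same-numbered libraries share more than a number.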
